A study of Mus musculus with 2 samples.

Results

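Mir144, Mir451a, Mir451b, Mir486 and Mir3107 are 5 of the 2202 miRNA genes counted in mouse heart, and their rows were found by name through the GENCODE M21 annotation. All 5 gene identifiers were found in both deposited tables. Mir144, Mir451a, Mir486 and Mir3107 held at least 10 sense counts in each library and were counted as detected, while Mir451b held 0. The samples were 2 microRNA-seq libraries, biological replicates 1 and 2, from heart of adult males, 8 to 10 months old, of strain 5xFAD/CAST. 5xFAD names a transgenic model of brain amyloid whose transgenes are driven by the neuronal Thy1 promoter, and CAST is a wild-derived inbred strain. Both libraries share strain, sex, age range and donor entry, and no second condition was sampled. The labels do not say that the libraries came from separate animals, so spreads and p-values here describe 2 libraries and may be technical. The labels also do not say whether blood was flushed from the hearts.

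miR-144 and miR-451 are made from a shared primary transcript that GATA1 switches on in erythroid precursors, and mature miR-451 is among the most abundant miRNAs of red blood cells. The miR-451 hairpin is unusual in that it bypasses Dicer and is cut by the Argonaute protein AGO2. miR-486 is made from an intron of Ank1, the gene of the membrane-skeleton protein ankyrin-1, and is known from both red cells and striated muscle.

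The mature sequences are shown because they define what each hairpin can contribute to the counts and which targets it can pair with. Of the 5 genes, 3 were matched in the RefSeq table (build GRCm38.p6), namely Mir144, Mir451a and Mir451b. Capitals mark the seed, bases 2 to 8 from the 5′ end, which pairs with target mRNAs.
miR-144-5p: gGAUAUCAucauauacuguaagu
miR-144-3p: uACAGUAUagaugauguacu
miR-451a: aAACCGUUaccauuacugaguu
miR-451b: uGGGAGCAgcaagagaaccgu
miR-101a-3p: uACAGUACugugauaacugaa
These 4 seeds of Mir144, Mir451a and Mir451b differed from each other, and each was shared with 0 other mature miRNAs among the 1679 names of the table. miR-101a-3p, from another gene, is shown because its first 8 bases differ from those of miR-144-3p by the single substitution U8C, counted from the 5′ end.

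In the hairpins below, capitals mark the mature sequences.
Mir144: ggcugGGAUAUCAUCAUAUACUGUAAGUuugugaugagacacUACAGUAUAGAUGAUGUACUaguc
Mir451a: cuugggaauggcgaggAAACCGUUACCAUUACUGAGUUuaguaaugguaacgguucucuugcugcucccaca
Mir144 gives a mature sequence from each arm, at bases 6 to 28 and 43 to 62 of its 66 bases. miR-451a lies at bases 17 to 38 of 72 and so runs from the 5′ arm into the loop. Mir144 (ENSMUSG00000065401.1) lies on the plus strand at chr11:78073005-78073070 and Mir451a (ENSMUSG00000070065.1) at chr11:78073170-78073241, with 99 bases between them. Mir451b (ENSMUSG00000104813.1) is annotated on the minus strand of the same interval as Mir451a. These 3 hairpins lie outside any annotated protein-coding gene. The nearest such gene was Eral1, which encodes a mitochondrial ribosome assembly GTPase, on the minus strand and 135 bases from Mir451a.

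Mir486 (ENSMUSG00000070084.3) lies on the plus strand at chr8:23142555-23142682 and Mir3107 (ENSMUSG00000106471.1) opposite it on the minus strand at chr8:23142573-23142662, within Ank1 (chr8:22974844-23150497, plus strand). Mir486 lay in an intron of 15 of the 17 annotated Ank1 transcripts, in the last intron of 14, and overlapped an Ank1 exon in 0. Of those 15 transcripts, 4 were short, with 3 to 5 exons and a start 2462 to 3525 bases before Mir486. The other transcripts had 42 to 46 exons. The annotated antisense gene Gm15816 also overlaps Mir486. Reads were counted by hairpin, so which Ank1 start gave the miRNA reads was not measured.

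Exact copies of a hairpin's sequence decide whether its reads can be counted, because reads that aligned to several places were given to no gene. Such reads were 42.3% of replicate 1 and 46.8% of replicate 2. For each hairpin, every window of 18, 20, 22 and 24 bases was searched on both strands of all annotated GENCODE M21 transcripts. Mir144, Mir451a and Mir451b had 0 windows with another match at any of these lengths. Mir486 and Mir3107 each had 11 windows of 18 bases, 6 of 20 bases and 2 of 22 bases with another match, and 0 of 24 bases. The windows of 22 bases lay at bases 33 to 54 and 73 to 94 of the 128 bases of Mir486, and at bases 15 to 36 and 55 to 76 of the 90 bases of Mir3107. Each also occurred as its own reverse complement in the same hairpin, so the locus holds an inverted repeat without a mismatch. A read lying wholly within it fits both arms and both strands equally, and the level of Mir486 and Mir3107 below counts only reads that could be placed. Among the 325 detected miRNA genes, 58 (17.8%) shared a window of 22 bases with another hairpin position. Matches elsewhere in the genome, outside annotated transcripts, were not tested.

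**Figure D1:**
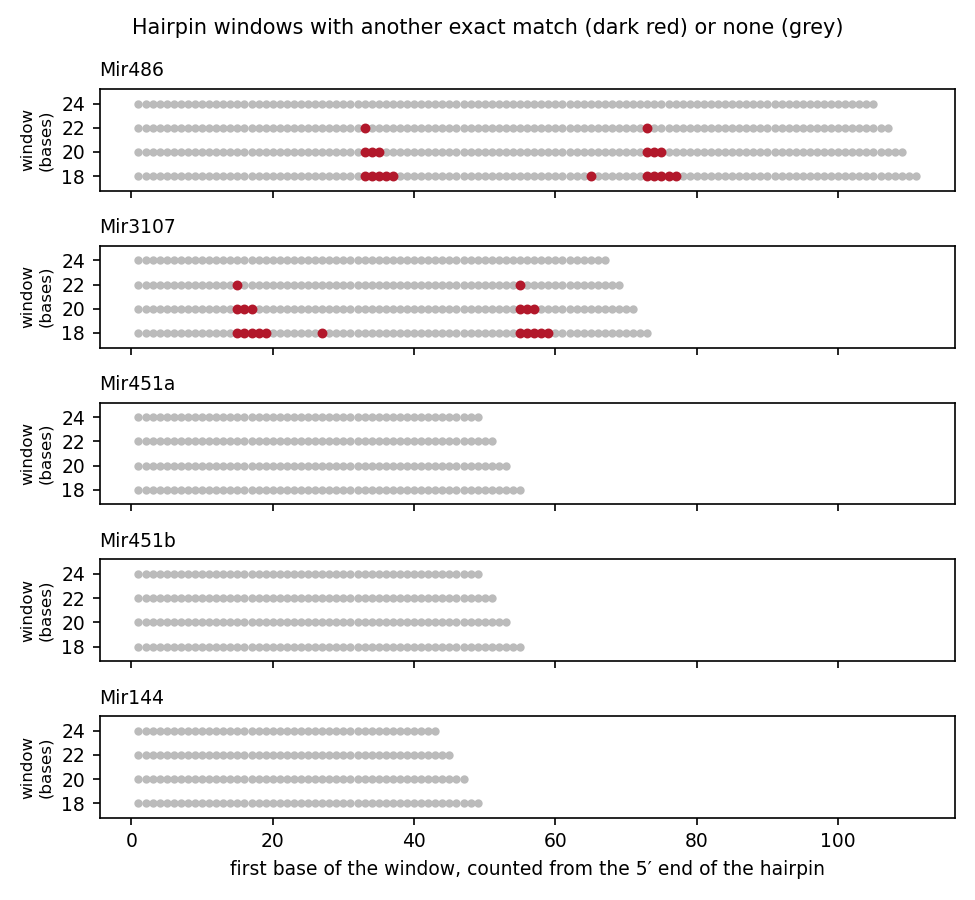
Each point is a window of 18, 20, 22 or 24 bases (vertical axis) at its first base in the hairpin (horizontal axis, bases from the 5′ end), dark red where the window has another exact match among annotated transcripts and grey where it has none. Mir486 and Mir3107 each show a pair of repeated stretches of 22 bases, with 2 such windows in each hairpin, and Mir451a, Mir451b and Mir144 show 0.

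The tables held 3889280 and 5058613 sense counts in replicates 1 and 2. Levels are sense counts scaled to the library's sense total (CPM), with exact 95% Poisson intervals per library. PCR reads without recorded molecular identifiers are not independent molecules, so all intervals and floors cover counting error only. The tissue label was checked against heart muscle miRNA genes. Of 7 listed, 6 were detected, led by Mir499 at 4310 ± 2232 CPM, Mir208a at 2685 ± 1697 CPM and Mir208b at 85.6 ± 41.1 CPM (SD, n = 2), which lie in myosin heavy chain genes, and 0 were at 0 in both libraries. The rest were lower, with Mir1a-2 at 40.1 ± 5.40 CPM, Mir133a-1 at 3.58 ± 0.0292, Mir133a-2 at 2.67 ± 0.139 and Mir1a-1 at 1.65 ± 0.937. These 4 share windows of 22 bases with another hairpin, and reads wholly within such windows were given to no gene. Mir122, which marks liver, stood at 27.9 ± 1.21 CPM, above all of these 4 but Mir1a-2.

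Of the red cell cluster, Mir451a was the more abundant gene. Mir451a had 1119 sense counts in replicate 1 and 833 in replicate 2. These are 288 CPM (interval 271 to 305) and 165 CPM (154 to 176), a mean of 226 ± 87.0 CPM (SD, n = 2). Replicate 1 was the higher library, the intervals did not overlap, and Mir451a ranked 94th and 110th among all genes.

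Mir144, its neighbour in the same transcript, stood lower and moved the other way. It had 125 sense counts in replicate 1 and 265 in replicate 2, or 32.1 CPM (26.8 to 38.3) and 52.4 CPM (46.3 to 59.1). Its mean was 42.3 ± 14.3 CPM (SD, n = 2). Replicate 2 was the higher library, again without overlap of the intervals.

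Mir451b, on the other strand of Mir451a, had 0 sense counts in both libraries. The floor that a 0 leaves is 3 counts per library, equal to 0.771 CPM (replicate 1) and 0.593 CPM (replicate 2). Set against these floors per library, Mir451a was at least 373-fold and 278-fold higher than Mir451b. The 3 counts would be 0.268% and 0.360% of the Mir451a counts.

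The Ank1 intron gene Mir486 was the most abundant of the 5 genes by reads that could be placed. Reads lying wholly within its inverted repeat, at bases 33 to 54 and 73 to 94, are left out of this level. Its mature sequences were not matched here, so how many mature reads this leaves out was not tested. Mir486 had 5187 sense counts in replicate 1 and 5190 in replicate 2. Scaled to library size these are 1334 CPM (1298 to 1370) and 1026 CPM (998 to 1054), with a mean of 1180 ± 218 CPM (SD, n = 2). Nearly the same number of reads was thus a smaller part of the deeper library, replicate 2.

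Mir3107, opposite Mir486, held a low count in both libraries. It had 133 and 125 sense counts, or 34.2 CPM (28.6 to 40.5) and 24.7 CPM (20.6 to 29.4), a mean of 29.5 ± 6.71 CPM (SD, n = 2). The intervals of the libraries overlapped. Its repeated stretches of 22 bases match Mir486 exactly, and which of the hairpins these reads came from was not tested.

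The summed share of the 5 genes was 0.169% in replicate 1, with a 95% Clopper-Pearson interval of 0.165 to 0.173, against 0.127% (0.124 to 0.130) for replicate 2. Mir486 and Mir3107 gave 1209 ± 224 CPM of this sum, and Mir144 and Mir451a 268 ± 72.7 CPM. By mean level the order was Mir486, Mir451a, Mir144 and Mir3107, at percentiles 82.8, 69.5, 46.5 and 41.5 of the 325 detected genes. The ranges over the libraries of Mir144 (32.1 to 52.4 CPM) and Mir3107 (24.7 to 34.2 CPM) overlapped, so these ranges do not settle their order. The ranges of Mir486 and Mir451a overlapped with none of the others. Per 100 bases of hairpin the order was the same, at 922 CPM for Mir486, 314 for Mir451a, 64.0 for Mir144 and 32.7 for Mir3107. On that scale the range of Mir144, 48.7 to 79.4, no longer overlapped that of Mir3107, 27.5 to 38.0. That separation comes from the annotated hairpin lengths, 66 and 90 bases. In replicate 1 Mir144 had fewer sense counts than Mir3107, 125 against 133, and in replicate 2 it had more, 265 against 125. In bulk tissue, fewer cells of a type and less RNA per cell cannot be told apart.

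**Figure D2:**
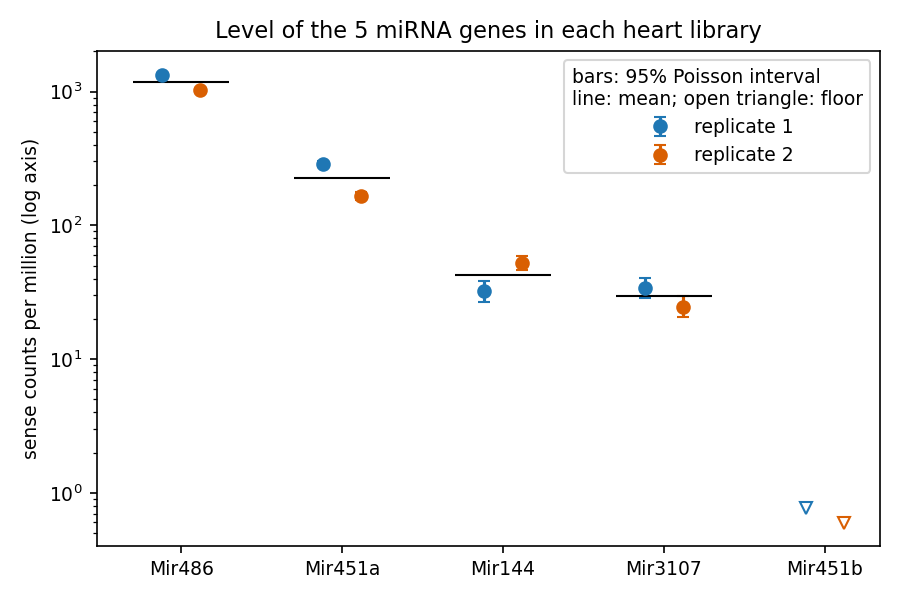
Sense CPM (log axis) of the 5 miRNA genes in replicate 1 (blue) and replicate 2 (orange), with exact 95% Poisson intervals, the mean as a line, and open triangles at the floor of 3 counts where the count was 0. The blue points of Mir486 (1334 CPM) and Mir451a (288 CPM) lie above the orange ones, the orange point of Mir144 (52.4 CPM) lies above the blue one, and Mir451b had 0 counts.

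The deposited tables give each gene a count that ignores strand, a sense count and an opposite-strand count, and these 3 columns differed sharply for the genes annotated on both strands. Mir144 has no gene on its other strand. It kept its 125 and 265 counts when strand was ignored and had 0 opposite-strand counts in both libraries. Mir451a had 0 counts in the column that ignores strand in both libraries, where reads over genes on both strands were set aside as ambiguous. The opposite-strand counts of Mir451b were 1119 and 833, the sense counts of Mir451a. Mir486 had 1 count in replicate 1 and 0 in replicate 2 when strand was ignored. Its opposite-strand counts were 134 and 125, against 133 and 125 sense counts of Mir3107. Levels of 4 of the 5 genes therefore exist only in the strand columns.

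Among 24 pairs of miRNA genes that overlap on opposite strands and hold at least 10 sense counts, 20 had 0 counts in both libraries when strand was ignored. The less abundant gene had 0 sense counts in 15 of the 24 pairs, Mir451b among them, and under 1% of the pair's sense counts in 21. Mir3107 held 2.50% of the counts of its pair in replicate 1, with a Clopper-Pearson interval of 2.10 to 2.96, against 2.35% (1.96 to 2.80) for replicate 2. Reads wholly within the inverted repeat of this pair are left out of its share. By mean over the libraries, among reads that could be placed, it was the third highest share of the 24. Those with a higher mean were Mir3074-1, opposite Mir24-1, with 9.53% and 1.37%, and Mir1b, opposite Mir1a-2, with 2.76% and 3.06%.

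Ratios between the genes within a library do not depend on how the libraries are scaled. The 4 detected genes form 6 pairs, and 4 of the 6 ratios differed between the libraries by Fisher's exact test (two-sided, Benjamini-Hochberg adjusted over the 6 pairs), which covers counting error only. Reads of 2 libraries compare those libraries, not conditions. How often the ratios of other gene pairs differed was not tested. In the test of single genes below, which uses the same counts, 187 of 412 genes (45.4%) were called. Ratios with Mir486 or Mir3107 cover only reads that could be placed.

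The ratio within the shared transcript changed the most. Mir451a outnumbered Mir144 by 8.95 to 1 in replicate 1 (exact interval 7.44 to 10.9) and by 3.14 to 1 in replicate 2 (2.73 to 3.62). The ratio in replicate 1 was 2.85 times that in replicate 2 (95% interval 2.25 to 3.62, adjusted p = 2.9e-19, Fisher's exact test). Both hairpins had 0 windows with another exact match in an annotated transcript at the lengths searched. Loss of reads to near copies, to shorter matches or to copies outside annotated transcripts was not tested.

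The ratio at the Ank1 locus, among reads that could be placed, was steadier. Mir486 outnumbered Mir3107 by 39.0 to 1 in replicate 1 (32.8 to 46.7) and by 41.5 to 1 in replicate 2 (34.8 to 49.99). The ratio in replicate 2 was 1.06 times that in replicate 1 and did not pass the test (adjusted p = 0.659, Fisher's exact test). The interval of this change, 0.825 to 1.37 times, still holds differences of moderate size.

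Across the loci, Mir486 over Mir451a was 4.64 in replicate 1 and 6.23 in replicate 2, 1.34 times higher (1.22 to 1.48, adjusted p = 5.3e-09, Fisher's exact test). Mir486 over Mir144 was 41.5 and 19.6, so replicate 1 held 2.12 times the ratio of replicate 2 (1.70 to 2.65, adjusted p = 6.5e-12). Mir144 over Mir3107 was 0.940 and 2.12, a change of 2.26 times (1.61 to 3.16, adjusted p = 1.2e-06). Mir451a over Mir3107 was 8.41 and 6.66 and did not pass the test (adjusted p = 0.0989, Fisher's exact test, interval of the change from replicate 2 to 1 of 0.965 to 1.65). All 3 ratios with Mir144 differed between the libraries.

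**Figure D3:**
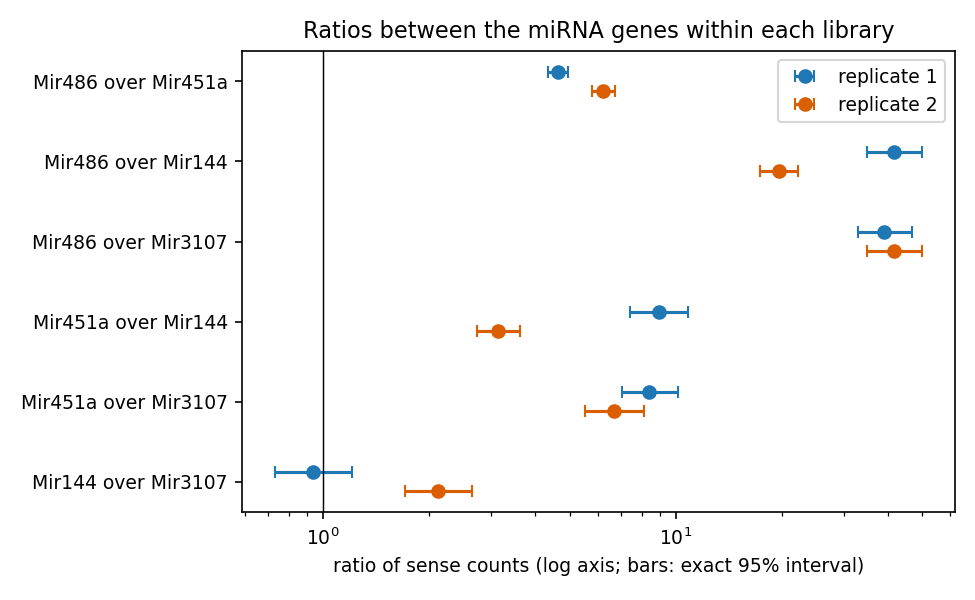
Ratio of sense counts (log axis) for each pair of the 4 detected genes in replicate 1 (blue) and replicate 2 (orange), with exact 95% intervals. The intervals of the libraries stand apart for Mir451a over Mir144 (8.95 against 3.14) and overlap for Mir486 over Mir3107 (39.0 against 41.5).

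Between the libraries, Mir144 was higher in replicate 2, and Mir451a and Mir486 were higher in replicate 1. The test was an exact binomial test, two-sided, against the ratio of the libraries' effective sizes (trimmed mean of M values, TMM), adjusted over the 412 genes that reached 10 counts in sum. Of the 4 tested members, 3 passed at an adjusted p of 0.05. This test called 187 of the 412 genes (45.4%), 93 higher in replicate 2 (22.6%) and 94 higher in replicate 1 (22.8%), so calls are common in these libraries.

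Mir144 was 1.77-fold higher in replicate 2 (95% interval 1.43 to 2.21, adjusted p = 2.8e-07, exact binomial test). Mir451a was 1.61-fold higher in replicate 1 (1.47 to 1.76, adjusted p = 1.2e-24, exact binomial test). Mir486 was 1.20-fold higher in replicate 1 (1.15 to 1.24, adjusted p = 6.8e-19, exact binomial test). Mir3107 did not pass, with a level 1.27 times higher in replicate 1 (0.989 to 1.64, adjusted p = 0.101, exact binomial test), although it passed when total counts set the scale (adjusted p = 0.0230). On the log2 scale with 1 CPM added, replicate 2 over replicate 1, the ratios were 0.81, -0.68, -0.26 and -0.34.

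Many other genes differed as much between the libraries. Among the 325 detected genes, 62 (19.1%) had a larger absolute log2 ratio than Mir144, 81 (24.9%) than Mir451a, 207 (63.7%) than Mir486 and 170 (52.3%) than Mir3107. When edgeR's exact test used the common dispersion of both libraries (a biological coefficient of variation of 0.357), 0 of the 4 members were called, and 3 of 412 genes were (0.728%). At an unadjusted p of 0.05 that test also called 0 of the 4, against 22 of all 412 genes, so few calls were to be had among 4 genes. The differences of Mir144, Mir451a and Mir486 thus passed the test of counting error and did not pass the edgeR test. Its dispersion was estimated from these same 2 libraries as a single group, so it already held the differences under test. The edgeR test therefore cannot decide whether the members differ beyond the spread between libraries.

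**Figure D4:**
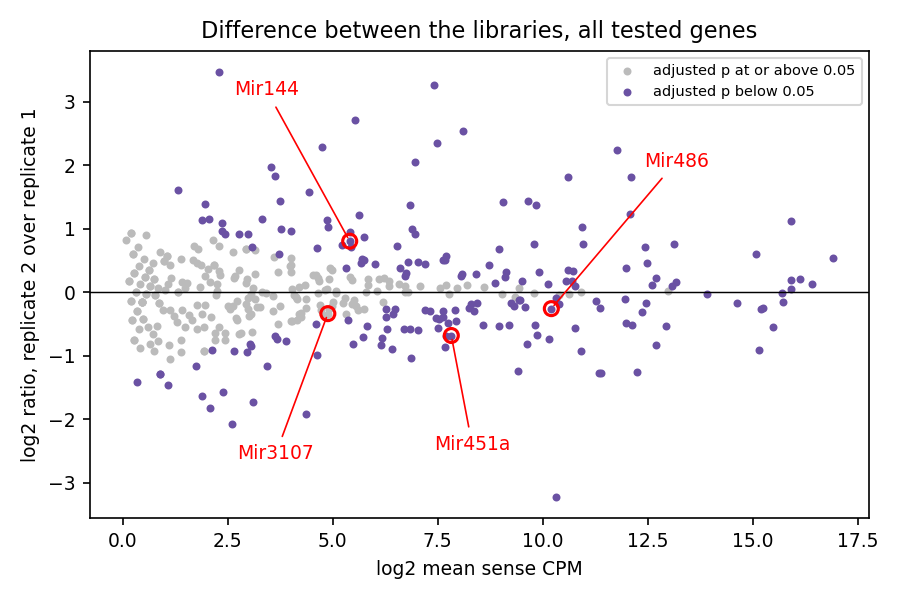
Log2 ratio of replicate 2 over replicate 1 (vertical axis, 1 CPM added) against log2 mean CPM (horizontal axis) for the 412 tested genes, purple where the adjusted p of the exact binomial test was below 0.05. Mir144 lies above 0 at 0.81, while Mir451a at -0.68, Mir486 at -0.26 and Mir3107 at -0.34 lie below it.

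The opposite moves of Mir144 and Mir451a were set beside those of other neighbouring hairpins. There were 106 pairs of tested miRNA genes next to each other on the same strand with a gap of at most 10 kb. Their log2 ratios differed by a median of 0.44, from 0.028 to 2.56. Mir144 and Mir451a differed by 1.49, and 7 of the 106 pairs (6.60%) differed by more. In 50 of the 106 pairs the log2 ratios had opposite signs. Of the 43 pairs in which every count was at least 100, a limit chosen after the data were seen, 1 differed by more, Mir497 and Mir195a at 1.69. By mean over the libraries, the levels of Mir451a and Mir144 differed by 5.35 times, and 56 of the 106 pairs differed more in level. Without replicate 2 this ratio was 8.95, and without replicate 1 it was 3.14.

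**Figure D5:**
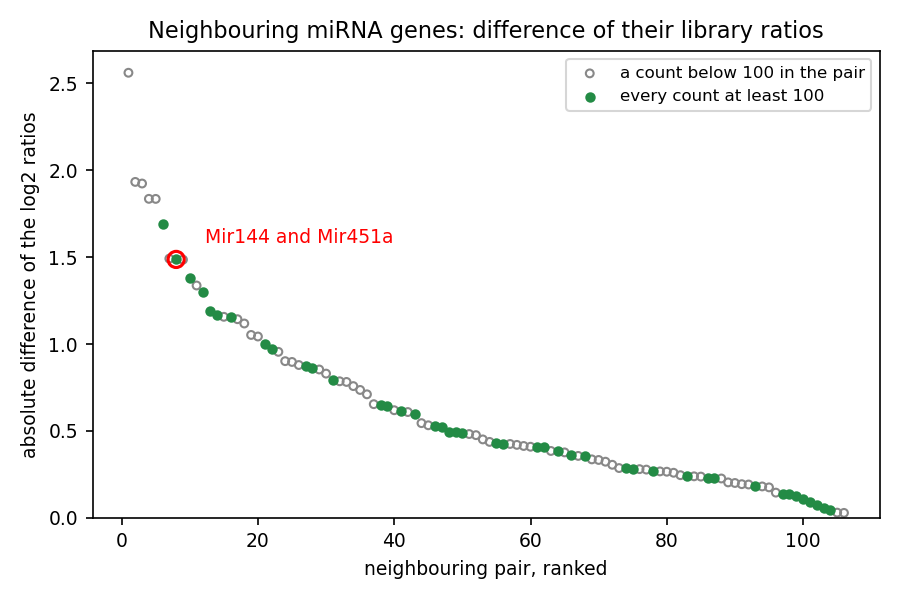
Absolute difference of the log2 library ratios for each of 106 neighbouring miRNA gene pairs (vertical axis), ranked from largest to smallest (horizontal axis), filled where every count of the pair was at least 100. Mir144 and Mir451a, ringed, differ by 1.49 and rank behind 7 pairs.

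Of the other miRNA genes listed as known from red cells, most were called higher in replicate 2. There Mir451a and Mir486 were lower and Mir144 was higher, while the summed share of the list was lower. This list held 12 genes besides the members, of which 11 were detected and tested, with 8 higher in replicate 2 and 2 higher in replicate 1 (exact binomial test), against 22.6% and 22.8% of all 412 tested genes. Its median log2 ratio was 0.48, against -0.0077 over all tested genes. The most abundant were Mir93, Mir92-1 and Mir15b, at 2469 ± 317, 1137 ± 468 and 889 ± 278 CPM (SD, n = 2). Mir15b was higher in replicate 2, with 692 and 1085 CPM, as was the hypoxia miRNA gene Mir210, with 96.7 and 124 CPM. Mir93, with 2693 and 2245 CPM, and Mir92-1, with 1468 and 806 CPM, were higher in replicate 1. Mir16-1, Mir16-2 and Mir92-1 share a window of 22 bases with another hairpin, so their counts are uncertain, and genes of this list are expressed by many other cells. The list as a whole took 0.624% and 0.582% of sense counts. It holds Mir16-1 and Mir363 (log2 ratios 0.68 and 1.09) without their neighbours Mir15a and Mir92-2 (-0.51 and -0.83). The count of genes higher in replicate 2 thus depends on which hairpins were listed.

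Lists of other cell types gave the following values beside the higher Mir451a and Mir486 of replicate 1. The leukocyte and platelet list, with 5 of 5 genes detected, took 0.838% of sense counts in replicate 1 and 0.680% in replicate 2, led by Mir155 at 4873 and 3211 CPM. Next came Mir146 at 1552 and 1797 CPM and Mir150 at 1672 and 1510 CPM. In this list 1 gene was called higher in each library, Mir155 in replicate 1 and Mir146 in replicate 2. For this list and those below, the shares over all tested genes were 22.6% higher in replicate 2 and 22.8% higher in replicate 1. Mir142 stood at 94.6 and 95.7 CPM. Mir223, a myeloid and platelet miRNA gene, stood at 191 and 184 CPM and did not pass the test (adjusted p = 0.501, exact binomial test). The heart muscle list took 0.678% and 0.748%, with 2 genes called higher in each library, and 4 of its 7 genes share a window of 22 bases with another hairpin. Mir208a, with 3885 and 1485 CPM, and Mir208b, with 115 and 56.5 CPM, were higher in replicate 1. Mir499, with 2732 and 5888 CPM, and Mir1a-2, with 36.3 and 43.9 CPM, were higher in replicate 2. The skeletal muscle genes Mir206 and Mir133b stood at 13.3 ± 2.30 and 4.50 ± 0.907 CPM, with 0 called. The endothelial gene Mir126a stood at 87115 and 87787 CPM. The smooth muscle list took 3.01% of sense counts in replicate 1 and 4.17% in replicate 2, and 2 of its 2 genes were higher in replicate 2, Mir143 with 28674 and 40225 CPM and Mir145a with 1463 and 1522 CPM. The part of blood or muscle content in the differences of Mir144, Mir451a and Mir486 was not tested.

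The genes nearest to each member were found by distance on log2(CPM + 1) over the 2 libraries among the 325 detected genes. With 2 points per gene this likeness covers level and direction only. Mir144 lay nearest to Mir409, at 34.5 and 52.4 CPM, and Mir215, at 30.3 and 54.6 CPM. Mir451a lay nearest to Mir874, at 258 and 169 CPM, and Mir574, at 261 and 150 CPM. The nearest genes of Mir486 were Mir30c-2, at 1378 and 1187 CPM, and Mir361, at 1480 and 1193 CPM. For Mir3107 they were Mir3057, at 33.9 and 25.9 CPM, and n-TSaga9, at 32.9 and 23.1 CPM.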

How the data were processed

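The authors deposited raw read counts for each miRNA gene of 2 heart libraries, in 3 columns, on build mm10 with GENCODE M21, per the file headers of the accompanying descriptions. The labels add a size range below 30, while aligner, read filters and handling of strain variants were not given in the sources used here. Library sizes exclude the 4 summary lines: unmapped reads were 14.5% and 12.5%, and sense counts were 35.9% and 35.6% of 10824381 and 14212392 reads. Of the strand columns, the one with more counts in each library is called sense. Computed here were CPM, TMM factors over genes with a sum of at least 10 (edgeR 4.0.16, R 4.3.3), exact binomial and Fisher tests (scipy 1.17.1) and Benjamini-Hochberg adjustment. With a single group, no quasi-likelihood test could be made. The binomial test was tested on simulated data. DESeq2 1.42.0 gave alternative size factors. Named genes were the members, the 2 nearest genes of each, the 3 most abundant genes of each list, and genes on which a result turns. Members and lists were chosen with earlier results of these data known. Mir15b, Mir210, Mir497, Mir195a, Mir223 and the opposite-strand pairs were named after their values were seen.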

Additional observations from a re-analysis of the deposited data

How the results depend on the processing

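Of the 4 members tested, 3 were called in the main setting, against 187 of 412 genes (45.4%). With total counts, 4 members and 199 genes were called. The members called were 3 with DESeq2 size factors (189 genes), no low-count filter (185), a sum of at least 50 counts (173) or 0.1 CPM added (187). The column that ignores strand left 1 member called, Mir144, among 174 genes called in all, as the other members have almost no counts there. The summed level of the 5 genes was then 55.8 CPM against 1478. Scaled to all reads in place of sense counts that sum was 529, since the denominator is larger. edgeR's exact test with the common dispersion, which was estimated from the same differences, called 0 members and 3 genes in all, against 187. Log2 ratios kept their sign in all settings that gave one: 0.69 to 0.86 for Mir144, -0.80 to -0.65 for Mir451a, -0.38 to -0.22 for Mir486 and -0.45 to -0.30 for Mir3107. The number of neighbouring pairs that differed more than Mir144 and Mir451a was 7 in the main setting, 6 within 1 kb, 6 when both genes reached 50 counts in sum, and 1 when every count was at least 100, the last chosen after seeing the data. Leaving out a replicate gave 1268 to 1688 CPM for the summed level. The column that ignores strand gave no ratio between members. No paired analysis was possible because the labels give a single group. At this depth, 0 counts of Mir451b leave levels under the floor of 3 counts, 0.771 and 0.593 CPM, not detectable.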
